A study of Mus musculus with 31 samples.

Results

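Socs1, Socs2, Socs3, Cish, Bcl3, Pim1 and Bcl6 are 7 genes that encode feedback inhibitors of cytokine signalling or other products switched by STAT transcription factors. They were chosen by name, each measured by the probe set of highest mean over the 31 arrays among the probe sets that name that gene alone. All 7 were measured, out of 18193 genes with such a probe set. The arrays came from whole skin of C3H/HeJ mice with established AA, an abbreviation of the series title read here as alopecia areata, an autoimmune loss of hair that older mice of this strain can develop. Mice received PBS, the buffer control, or 1 of 2 topical Janus kinase inhibitors named jak1i and jak3i. Each of the 3 arms had 3 arrays at 0, 6 and 12 weeks, and each inhibitor arm had 2 more at 24 weeks, for which no PBS array was analysed here. The arrays at 0 weeks stand for affected skin before treatment; the labels name no unaffected skin, and they give neither the compounds nor their doses, nor the age or sex of the mice. Replicates are described as biological, and nothing tells whether a mouse gave skin at more than 1 week.

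Bcl3 was the member that fell furthest: at 6 weeks it lay 3.83-fold below PBS with jak1i and 2.99-fold below PBS with jak3i. Cish was 1.86-fold and 1.82-fold lower at the same time, and passed the test in neither arm at 12 weeks. Pim1 was 1.49-fold and 1.43-fold lower in the 2 inhibitor arms at 12 weeks, and Bcl6 was 1.61-fold higher with jak1i at 12 weeks. Socs1 and Socs3 passed the test only against their own start, Socs1 in the jak1i arm and Socs3 in the jak3i arm, and Socs2 passed it in no comparison. Many of these calls were lost when single arrays were left out, as given beside each gene. The 12-week differences from PBS rest on PBS arrays that stood apart in skeletal muscle markers. Against the PBS arrays of 6 weeks, 0 members were called with either inhibitor at 12 weeks.

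Cytokine receptors bound to Janus kinases phosphorylate STAT proteins, which move to the nucleus and switch on target genes. Among these targets are the suppressors of cytokine signalling, Socs1, Socs2, Socs3 and Cish, whose products bind receptors or kinases and damp the same pathway, so that their RNA is commonly used as a readout of recent signalling. Socs1 answers interferons, Socs3 cytokines of the interleukin-6 family through STAT3, and Socs2 and Cish growth hormone and gamma-chain cytokines through STAT5. Bcl3 encodes an atypical nuclear IkB protein that binds NF-kB subunits and is induced by cytokines through STAT3 and by NF-kB. Pim1 encodes a serine/threonine kinase that favours survival and growth. Bcl6 encodes a transcriptional repressor that STAT5 represses in lymphocytes. In alopecia areata, cytotoxic T cells, interferon-gamma and gamma-chain cytokines are known to act on the hair follicle.

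STAT dimers bind a palindrome that can be written TTCNNNGAA or, with a wider spacer, TTCNNNNGAA, and interferon response elements hold repeats written GAAANNGAAA. These letters were searched on both strands of RefSeq promoter windows that run from 250 bases before to 50 bases after an annotated start (GRCm38.p6). Some of these starts lie inside the gene's locus as given below, such as that of Socs3 and the second starts of Bcl6 and Pim1. Windows were held for 6 of the 7 members, 8 windows in all, with no entry for Socs2. TTCNNNGAA was found in windows of Socs3, Cish and Bcl6, and in 8.3% of all 32851 windows. GAAANNGAAA was found in the Socs1 window and in 3.44% of all windows. TTCNNNNGAA was found in no member's window and in 6.95% of all windows. The windows of Bcl3 and Pim1 held none of the motifs. The stretches that hold a match are shown 5′ to 3′ on the gene's strand because they are the letters a STAT or interferon-regulated factor is known to read, with the match in capitals and 10 bases on each side.
Socs1, chr16:10785600-10785629, minus strand: agacttgccgGAAAGAGAAAccgaaagcgg
Socs1, chr16:10785594-10785623, minus strand: gccggaaagaGAAACCGAAAgcgggggtgg
Socs3, chr11:117969502-117969530, minus strand: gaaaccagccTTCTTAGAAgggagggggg
Cish, chr9:107296649-107296677, plus strand: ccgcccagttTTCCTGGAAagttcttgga
Cish, chr9:107296660-107296688, plus strand: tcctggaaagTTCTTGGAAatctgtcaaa
Bcl6, first start, chr16:23988952-23988980, minus strand: agcaaattagTTCTCAGAAttccagaggc
Bcl6, second start, chr16:23981433-23981461, minus strand: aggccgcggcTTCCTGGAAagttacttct
Bcl6, second start, chr16:23981387-23981415, minus strand: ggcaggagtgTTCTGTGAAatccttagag
Bcl6, second start, chr16:23981353-23981381, minus strand: atcgactacgTTCCGGGAAtgagagggct

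The Socs1 matches overlap by 4 bases and lie at positions -83 to -74 and -77 to -68 from the gene's start. Both Cish matches lie at or just after its start, at positions 1 to 9 and 12 to 20. Windows with at least 2 TTCNNNGAA matches made up 0.457% of all windows, and windows with at least 3, as at the second Bcl6 start, were 11 in number, or 0.033%. A match describes these letters only, and no binding was measured here.

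Values are log2 RMA values, on which a difference of 1 is a 2-fold difference. Over the 31 arrays they ran from 2.59 to 14.69, and the array medians from 6.05 to 6.24. Differences were tested with limma on 1 model of all 31 arrays, with Benjamini-Hochberg adjustment over the 18193 genes, and a gene was called at an adjusted p below 0.05. The 9 epidermal keratinocyte markers summed to between 15.87 and 16.70 on the log2 scale in every group, as skin should show. The PBS arrays at 12 weeks stood apart in skeletal muscle markers, with a sum of 9.32 to 12.72 against 14.85 to 16.78 on all other arrays. Each member's 12-week call against PBS is therefore given below with the PBS arrays of 6 weeks as the control as well, and the pathway and marker lists with counts of calls under that control, an alternative chosen after seeing the data. The arms did not differ by the test before treatment: of 18193 genes, 0% were called between either inhibitor arm and PBS at 0 weeks. Bcl3 was nonetheless 0.96 higher in the jak3i arm than in PBS at 0 weeks (SE 0.35, unadjusted p = 0.0128, adjusted p = 0.590, limma). It was the only member with an unadjusted p below 0.05 there, which 1378 of the 18193 genes had. In bulk skin, fewer cells of a type and less RNA per cell cannot be told apart, and this holds for every difference below.

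**Figure D1:**
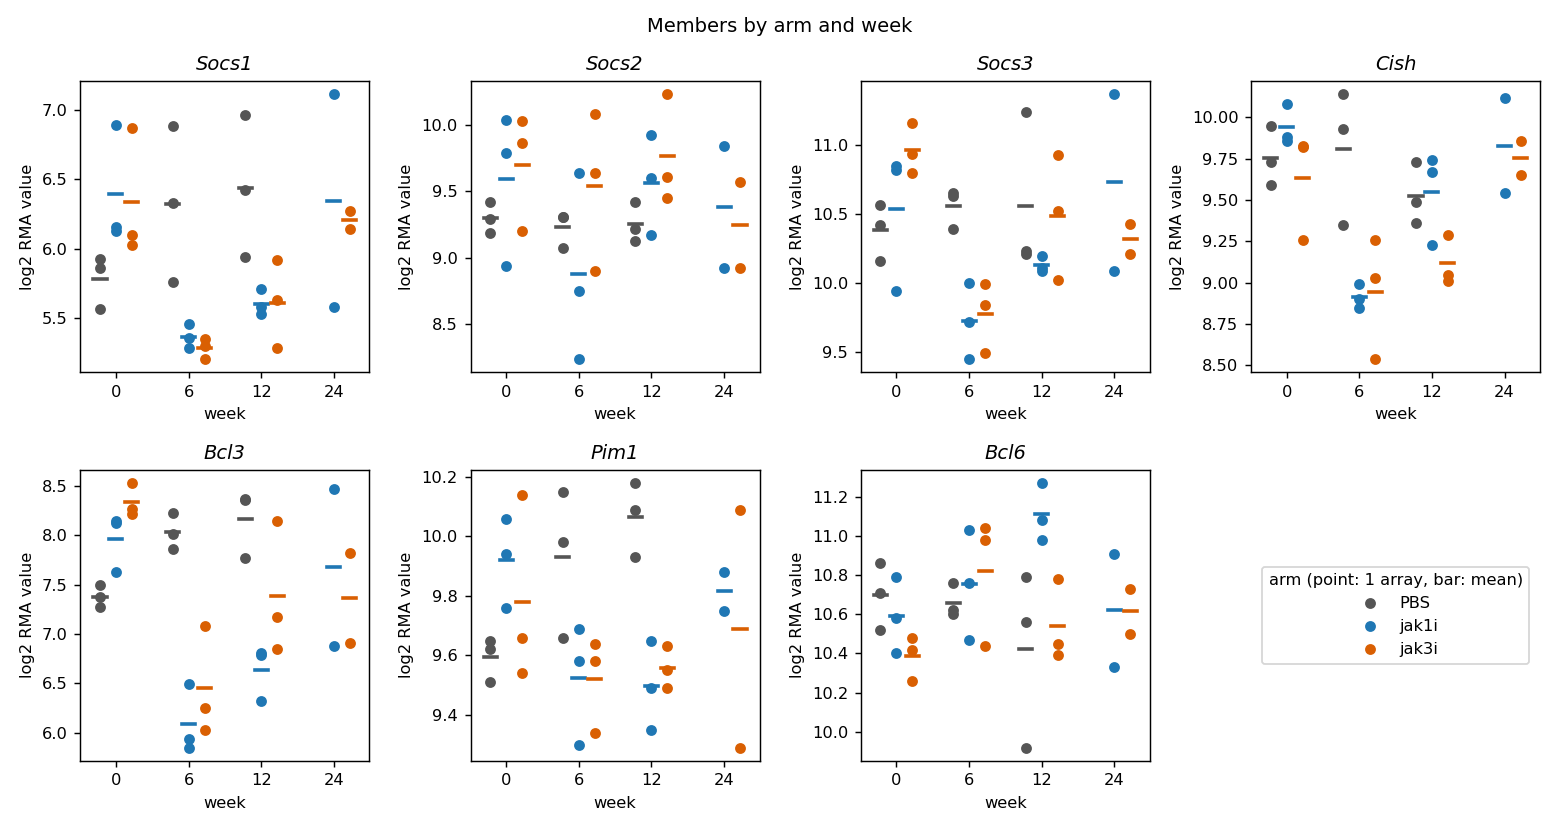
Each panel plots 1 gene, with the week on the x axis and the log2 RMA value on the y axis. Points are single arrays and bars are means of the arrays of PBS, jak1i and jak3i. All 6 inhibitor arrays of Bcl3 at 6 weeks lie at or below 7.08, under the lowest PBS array of that week at 7.86, and at 24 weeks 1 of the 2 arrays of each inhibitor lies well above the other.

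Socs1 (chr16:10783808-10785536, GRCm38.p6) encodes an inhibitor that binds Janus kinases downstream of interferon receptors. In the PBS arm its arrays read 5.57, 5.86 and 5.93 at 0 weeks, 5.76, 6.33 and 6.88 at 6 weeks, and 6.42, 5.94 and 6.96 at 12 weeks. In the jak1i arm they read 6.13, 6.16 and 6.89 at 0 weeks, 5.29, 5.46 and 5.36 at 6 weeks, and 5.58, 5.71 and 5.53 at 12 weeks. In the jak3i arm they read 6.87, 6.03 and 6.10 at 0 weeks, 5.30, 5.35 and 5.21 at 6 weeks, and 5.63, 5.29 and 5.92 at 12 weeks. All inhibitor arrays at 6 weeks lay below all PBS arrays of that week, and the same held at 12 weeks. The PBS arrays of those weeks were widely spread, with an SD of 0.56 and 0.51 (n = 3), against 0.09 in jak1i at either week. The differences from PBS did not pass the test: -0.95 with jak1i (SE 0.32, adjusted p = 0.141) and -1.03 with jak3i (SE 0.32, adjusted p = 0.0949) at 6 weeks. At 12 weeks they were -0.84 (SE 0.32, adjusted p = 0.0849) and -0.83 (SE 0.32, adjusted p = 0.0755). Against its own start, Socs1 fell by 1.03 in the jak1i arm at 6 weeks (SE 0.32, adjusted p = 0.04, limma), a call that was lost without any of 5 of the 6 arrays compared. Without replicate 3 of jak1i at 0 weeks that difference was -0.78 (adjusted p = 0.165), and without replicate 1 of that group -1.16 (adjusted p = 0.0617). Without replicate 2 of jak1i at 0 weeks it was -1.15 (adjusted p = 0.057), and without replicate 1 or 3 of jak1i at 6 weeks it was -0.99 (adjusted p = 0.13) or -1.02 (adjusted p = 0.102). Conversely, leaving out replicate 2 of PBS at 12 weeks brought calls against PBS, with differences of -1.09 for jak1i (adjusted p = 0.0379) and -1.08 for jak3i (adjusted p = 0.0348). Without replicate 1 of PBS at 6 weeks the jak3i difference was called as well, at -1.31 (adjusted p = 0.0317). Socs1 has 1 probe set, and its mean of 5.95 over the arrays lies below the median of all values in the table, 6.177.

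Socs3 (chr11:117966079-117970336) encodes the inhibitor that binds the shared receptor subunit of the interleukin-6 family. Its PBS arrays read 10.57, 10.16 and 10.42 at 0 weeks, 10.63, 10.39 and 10.65 at 6 weeks, and 10.21, 10.23 and 11.24 at 12 weeks. With jak1i they read 10.85, 9.94 and 10.82, then 9.72, 9.45 and 10.00, then 10.11, 10.09 and 10.20. With jak3i they read 10.94, 10.80 and 11.16, then 9.84, 9.99 and 9.49, then 10.52, 10.02 and 10.93. The inhibitor arrays at 6 weeks lay below every PBS array of that week, while at 12 weeks the jak3i arrays overlapped with PBS and the jak1i arrays lay just under it. The differences from PBS at 6 weeks, -0.83 with jak1i (SE 0.30, adjusted p = 0.165) and -0.78 with jak3i (SE 0.30, adjusted p = 0.178), did not pass the test. At 12 weeks they were -0.43 (SE 0.30, adjusted p = 0.356) and -0.07 (SE 0.30, adjusted p = 0.888). Against its own start, Socs3 fell 2.28-fold in the jak3i arm at 6 weeks, by 1.19 on the log2 scale (SE 0.30, adjusted p = 0.0345, limma). The jak3i arrays at 0 weeks had the highest group mean of the 11 groups, 10.97 ± 0.18 (SD, n = 3). That call was lost without any of 5 of the 6 arrays compared. The values were -1.20, -1.28 and -1.10 without replicates 1, 2 and 3 at 0 weeks (adjusted p = 0.0742, 0.121 and 0.0584). Without replicates 2 and 3 at 6 weeks they were -1.30 and -1.05 (adjusted p = 0.0658 and 0.119). The other Socs3 probe sets tracked the chosen one with r = 0.98 and 0.92 over 31 arrays, and the chosen one is of the _x_ kind, some of whose probes can match other transcripts.

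Cish (chr9:107296659-107302784) encodes the cytokine-inducible inhibitor of receptors that act through STAT5, and in T cells it restrains receptor signalling. With PBS it read 9.95, 9.59 and 9.73 at 0 weeks, 9.35, 9.93 and 10.14 at 6 weeks, and 9.49, 9.36 and 9.73 at 12 weeks. With jak1i it read 9.88, 9.86 and 10.08, then 8.90, 8.99 and 8.85, then 9.23, 9.74 and 9.67. With jak3i it read 9.83, 9.82 and 9.26, then 9.26, 9.03 and 8.54, then 9.01, 9.05 and 9.29. The jak1i arrays thus dropped to 8.91 ± 0.07 (SD, n = 3) at 6 weeks. At 12 weeks they overlapped with the PBS arrays of that week, though replicate 1, at 9.23, lay below all of those. The jak3i arrays at 12 weeks still lay below every PBS array of that week. Against PBS at 6 weeks Cish fell by 0.90 with jak1i (SE 0.21, adjusted p = 0.0331) and by 0.87 with jak3i (SE 0.21, adjusted p = 0.0317, limma). Leaving out any of 4 arrays ended each call. For jak1i the difference was -0.89 and -0.86 without jak1i replicates 1 and 3 (adjusted p = 0.154 and 0.103), and -0.83 and -0.73 without PBS replicates 2 and 3 (adjusted p = 0.153 and 0.208). For jak3i it was -0.91 and -0.66 without jak3i replicates 2 and 3 (adjusted p = 0.0679 and 0.155), and -0.80 and -0.70 without PBS replicates 2 and 3 (adjusted p = 0.17 and 0.165). A fit of the compared arrays alone, with fewer degrees of freedom, did not call them either (adjusted p = 0.229 and 0.357). Against its own start Cish fell 2.04-fold in the jak1i arm at 6 weeks, by 1.03 (SE 0.21, adjusted p = 0.00451), and this call was kept in all 15 alternatives run. In the jak3i arm the change was -0.69 (SE 0.21, adjusted p = 0.0604). From 0 to 12 weeks the changes were -0.40 with jak1i (SE 0.21, adjusted p = 0.187) and -0.52 with jak3i (SE 0.21, adjusted p = 0.0944, limma). At 12 weeks the difference from PBS was 0.02 with jak1i (SE 0.21, adjusted p = 0.968) and -0.41 with jak3i (SE 0.21, adjusted p = 0.167). Cish has 1 probe set, so no other could be compared.

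Socs2 (chr10:95383903-95417321) encodes the inhibitor best known for limiting growth hormone signalling. Its PBS arrays kept to a narrow range, 9.42, 9.19 and 9.29 at 0 weeks, 9.31, 9.07 and 9.31 at 6 weeks, and 9.13, 9.22 and 9.42 at 12 weeks. With jak1i it read 10.04, 8.94 and 9.79, then 9.64, 8.24 and 8.75, then 9.92, 9.17 and 9.60. With jak3i it read 10.03, 9.86 and 9.20, then 8.90, 10.08 and 9.64, then 9.45, 10.23 and 9.61. The arrays of the inhibitor arms were spread to either side of the PBS range, with SDs of 0.37 to 0.71 (n = 3) against 0.11 to 0.14 in PBS. The wide spread was already there before treatment, with SDs at 0 weeks of 0.57 in the jak1i arm and 0.44 in the jak3i arm. The 4 differences from PBS at 6 and 12 weeks ran from -0.35 to 0.51 (SE 0.35 each) with adjusted p of at least 0.326, so the intervals allow changes in either direction, for example -1.08 to 0.37 for jak1i at 6 weeks. No neighbouring group means of Socs2 lay further apart than the pooled SD of 0.45. The 5 other Socs2 probe sets correlated with the chosen one at r = 0.46 to 0.96, the least uniform of the members with several probe sets.

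Bcl3 (chr7:19808462-19822824), the IkB-like cofactor of NF-kB, had the clearest pattern. With PBS it read 7.37, 7.27 and 7.50 at 0 weeks, 8.23, 7.86 and 8.01 at 6 weeks, and 8.37, 7.77 and 8.36 at 12 weeks. With jak1i it read 8.12, 7.63 and 8.14, then 5.85, 6.49 and 5.94, then 6.81, 6.79 and 6.32. With jak3i it read 8.27, 8.22 and 8.53, then 6.03, 6.25 and 7.08, then 7.17, 6.85 and 8.14. At 6 weeks both inhibitor groups lay below every PBS array, and at 12 weeks jak1i still did, while replicate 3 of jak3i stood within the PBS range. Against PBS at 6 weeks Bcl3 fell by 1.94 with jak1i (SE 0.35, adjusted p = 0.00925) and by 1.58 with jak3i (SE 0.35, adjusted p = 0.0222, limma). At 12 weeks it fell by 1.53 with jak1i (SE 0.35, adjusted p = 0.0088), a 2.88-fold difference, and differed by -0.78 with jak3i (SE 0.35, adjusted p = 0.123). Leaving out replicate 3 of jak3i at 12 weeks moved that last difference to -1.16 (adjusted p = 0.0362), which is a call. Bcl3 has 1 probe set as well, so no other could be compared.

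The Bcl3 calls against PBS at 6 weeks did not hold without every array. For jak1i, the difference was -1.81 (adjusted p = 0.0774) without jak1i replicate 1 and -1.95 (adjusted p = 0.0634) without PBS replicate 3. For jak3i, it was -1.48 without jak3i replicate 2 (adjusted p = 0.0806), -1.67 without PBS replicate 2 (adjusted p = 0.0737) and -1.59 without PBS replicate 3 (adjusted p = 0.0825). The sizes therefore moved little while the adjusted p crossed the threshold. A fit of the compared arrays alone gave adjusted p = 0.148 for jak3i. The jak1i difference at 12 weeks was -1.43 (adjusted p = 0.0517) without PBS replicate 3 and -1.39 (adjusted p = 0.0813) against the PBS arrays of 6 weeks. With the mean of the hair shaft markers as a covariate it was -1.21 (adjusted p = 0.0868).

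Against its own start Bcl3 fell 3.66-fold with jak1i, with a log2 difference of -1.87 (SE 0.35, adjusted p = 0.00318), and 3.70-fold with jak3i, with -1.89 (SE 0.35, adjusted p = 0.00583), both at 6 weeks. The jak1i call was kept in all 15 alternatives, and the jak3i call was kept without any single array but not in a fit of the compared arrays alone (adjusted p = 0.0707). At 12 weeks the jak1i arm was still 2.50-fold below its start, by 1.32 (SE 0.35, adjusted p = 0.0153). That call was lost without replicate 1 at 0 weeks (-1.25, adjusted p = 0.0594) or replicate 3 at 12 weeks (-1.16, adjusted p = 0.0647). The jak3i arm was at -0.95 (SE 0.35, adjusted p = 0.075). In the PBS arm the difference between 12 and 0 weeks had the other sign, 0.78 (SE 0.35, adjusted p = 0.271), and did not pass the test. The change in an inhibitor arm minus that in PBS was called for Bcl3 in 3 of 4 cases. These differences of changes include the unequal starts of the arms. At 0 weeks the mean was 7.38 in PBS, 7.96 with jak1i and 8.34 with jak3i. The low PBS start makes them larger than the differences from PBS at the later week. The called ones were -2.52 (SE 0.50, adjusted p = 0.0458) for jak1i at 6 weeks, -2.11 (SE 0.50, adjusted p = 0.0181) for jak1i at 12 weeks and -1.74 (SE 0.50, adjusted p = 0.049) for jak3i at 12 weeks. The remaining one, jak3i at 6 weeks, was -2.53 (SE 0.50, adjusted p = 0.105). The calls for jak1i at 6 weeks and jak3i at 12 weeks were lost without 10 of the 12 arrays in turn, and the call for jak1i at 12 weeks without PBS replicate 3 of 12 weeks (-2.01, adjusted p = 0.0577).

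Pim1 (chr17:29490785-29496111), the survival kinase, had smaller differences and small spreads. With PBS it read 9.65, 9.62 and 9.51 at 0 weeks, 9.66, 10.15 and 9.98 at 6 weeks, and 10.09, 9.93 and 10.18 at 12 weeks. With jak1i it read 9.76, 9.94 and 10.06, then 9.30, 9.58 and 9.69, then 9.65, 9.49 and 9.35. With jak3i it read 9.66, 10.14 and 9.54, then 9.64, 9.34 and 9.58, then 9.63, 9.55 and 9.49. At 12 weeks all 6 inhibitor arrays lay below all 3 PBS arrays, and at 6 weeks the jak3i arrays did so while the jak1i arrays overlapped with PBS. Against PBS at 12 weeks Pim1 was lower by 0.57 with jak1i (SE 0.17, adjusted p = 0.0306) and by 0.51 with jak3i (SE 0.17, adjusted p = 0.0432, limma). At 6 weeks the difference was -0.41 in each arm (SE 0.17, adjusted p = 0.225 and 0.217). Before treatment, at 0 weeks, it was 0.33 with jak1i and 0.19 with jak3i (SE 0.17 each, adjusted p = 0.983 and 0.906, limma). The PBS mean itself was 9.59 ± 0.07 at 0 weeks and 10.07 ± 0.13 at 12 weeks (SD, n = 3), a difference of 0.48 that did not pass the test (SE 0.17, adjusted p = 0.156). Neither inhibitor arm passed at 12 weeks against its own start. Those differences were -0.43 with jak1i (SE 0.17, adjusted p = 0.087) and -0.22 with jak3i (SE 0.17, adjusted p = 0.367, limma). The change from 0 to 12 weeks in jak1i minus that in PBS was -0.91 (SE 0.24, adjusted p = 0.0294), lost without 7 of the 12 arrays in turn, and in jak3i it was -0.70 (adjusted p = 0.0834). The jak1i value was -0.32 (adjusted p = 0.949) with the skeletal muscle markers as a covariate and -0.72 (adjusted p = 0.118) with the hair shaft markers.

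The 12-week Pim1 calls were among the least stable. Against the PBS arrays of 6 weeks the differences were -0.44 (adjusted p = 0.204) and -0.38 (adjusted p = 0.184). For jak1i, the difference was -0.57 and -0.50 without jak1i replicates 2 and 3 (adjusted p = 0.0734 and 0.113), and -0.56 and -0.52 without PBS replicates 1 and 3 (adjusted p = 0.0789 and 0.134). For jak3i, it was -0.55, -0.51 and -0.48 without jak3i replicates 1, 2 and 3 (adjusted p = 0.0878, 0.101 and 0.098), and -0.50 and -0.46 without PBS replicates 1 and 3 (adjusted p = 0.106 and 0.147). Leaving out an array thus changed the size by little. With the mean of the skeletal muscle markers as a covariate, on which the PBS arrays at 12 weeks stand apart, the jak1i difference was -0.02 (adjusted p = 0.998) and the jak3i difference turned to 0.03 (adjusted p = 0.999). Such a fit cannot separate these markers from that PBS group. The second Pim1 probe set correlated with the chosen one at r = 0.79 and gave -0.50 (SE 0.15, adjusted p = 0.0332) and -0.51 (SE 0.15, adjusted p = 0.0259) at 12 weeks, but -0.11 and -0.23 at 6 weeks.

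Bcl6 (chr16:23965050-23988866), the repressor, ran opposite to the other called members. With PBS it read 10.86, 10.52 and 10.71 at 0 weeks, 10.62, 10.76 and 10.60 at 6 weeks, and 10.79, 10.56 and 9.92 at 12 weeks. With jak1i it read 10.79, 10.58 and 10.40, then 11.03, 10.47 and 10.76, then 10.98, 11.27 and 11.08. With jak3i it read 10.48, 10.26 and 10.42, then 10.44, 10.98 and 11.04, then 10.45, 10.78 and 10.39. The jak1i arrays at 12 weeks lay above all PBS arrays of every week, and their mean of 11.11 ± 0.14 (SD, n = 3) was the only one separated from the next by more than the pooled SD of 0.25. Against PBS at 12 weeks Bcl6 was higher by 0.69 with jak1i (SE 0.20, adjusted p = 0.0269, limma), while jak3i differed by 0.12 (SE 0.20, adjusted p = 0.715). PBS replicate 3 of 12 weeks, at 9.92, was the lowest of the 31 arrays, and without it the jak1i difference was 0.44 (adjusted p = 0.202). The call was also lost without jak1i replicate 2 (0.61, adjusted p = 0.0938) or replicate 3 (0.70, adjusted p = 0.0677), in a fit of the compared arrays alone (adjusted p = 0.101), and against the PBS arrays of 6 weeks (0.45, adjusted p = 0.252). With the hair shaft markers as a covariate it was 0.35 (adjusted p = 0.271). The second Bcl6 probe set (r = 0.87 with the chosen one) gave 0.69 (SE 0.19, adjusted p = 0.0179).

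**Figure D2:**
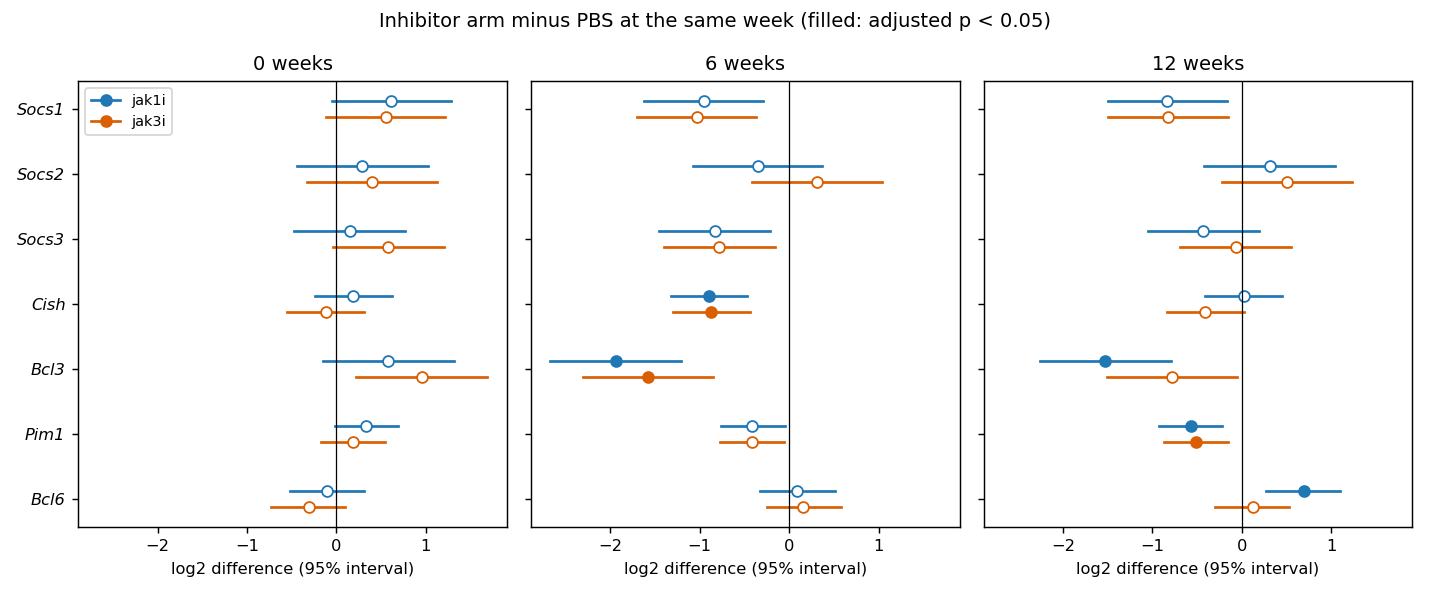
Each panel shows the log2 difference of an inhibitor arm from PBS at the same week on the x axis, with its 95% interval, for the 7 genes listed on the y axis. Filled points passed the test: none at 0 weeks, Cish and Bcl3 in both arms at 6 weeks, and at 12 weeks Bcl3, Pim1 and Bcl6 with jak1i and Pim1 with jak3i.

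Of the 7 members, 2 fell and 0 rose with jak1i at 6 weeks, where 1.36% of all genes were called and 1.22% were called lower, and the median of the members was -0.83 against 0.04 over all genes. With jak3i at 6 weeks 2 fell and 0 rose, where 1.94% of genes were called and 1.5% were called lower, with a median of -0.78 against 0.02. At 12 weeks far more of the array was called, and the members' counts stood in a broader field of change. With jak1i 2 fell and 1 rose, where 13.4% of genes were called, 6.51% lower and 6.85% higher, with a median of -0.43 against -0.03. With jak3i 1 fell and 0 rose, where 17.3% of genes were called and 7.28% were called lower, with a median of -0.41 against -0.03. Groups that did not overlap were found for 4 members with jak1i at 6 weeks (18.5% of all genes) and 5 with jak3i at 6 weeks (15.6%). At 12 weeks they were found for 5 members (36.2% of all genes) and 4 members (38.3%). Before treatment, at 0 weeks, they were already found for 3 members with jak1i (12.2% of all genes) and 4 with jak3i (15.3%). The jak1i and jak3i comparisons share their PBS arrays, so their counts are not independent.

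Against their own start, 3 members fell and 0 rose with jak1i at 6 weeks, Socs1, Cish and Bcl3, where 12.4% of all genes were called and 6.43% were called lower. With jak3i at 6 weeks 2 members fell, Socs3 and Bcl3, where 3.15% were called and 2.05% were called lower. At 12 weeks 1 member fell with jak1i, Bcl3, where 16.3% were called and 6.5% were called lower, and 0 members were called with jak3i, where 10.3% of genes were called. In that jak3i comparison 3 members had an unadjusted p below 0.05, as did 5850 of the 18193 genes. No member was called in the PBS arm, where 0.0055% of genes were called from 0 to 6 weeks and 2.28% from 0 to 12 weeks. From 0 to 12 weeks in PBS, 2960 of the 18193 genes had an unadjusted p below 0.05. Among them were 2 members, Bcl3 and Pim1, with the values given above. The changes that exceeded those in PBS were called for 1 member with jak1i at 6 weeks (0.121% of all genes, 0.11% lower) and for 0 with jak3i at 6 weeks (0.0055%). At 12 weeks they were called for 2 members with jak1i (6.85%, 3.86% lower) and for 1 with jak3i (4.55%, 1.96% lower), each time Bcl3 and, with jak1i at 12 weeks, Pim1.

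**Figure D3:**
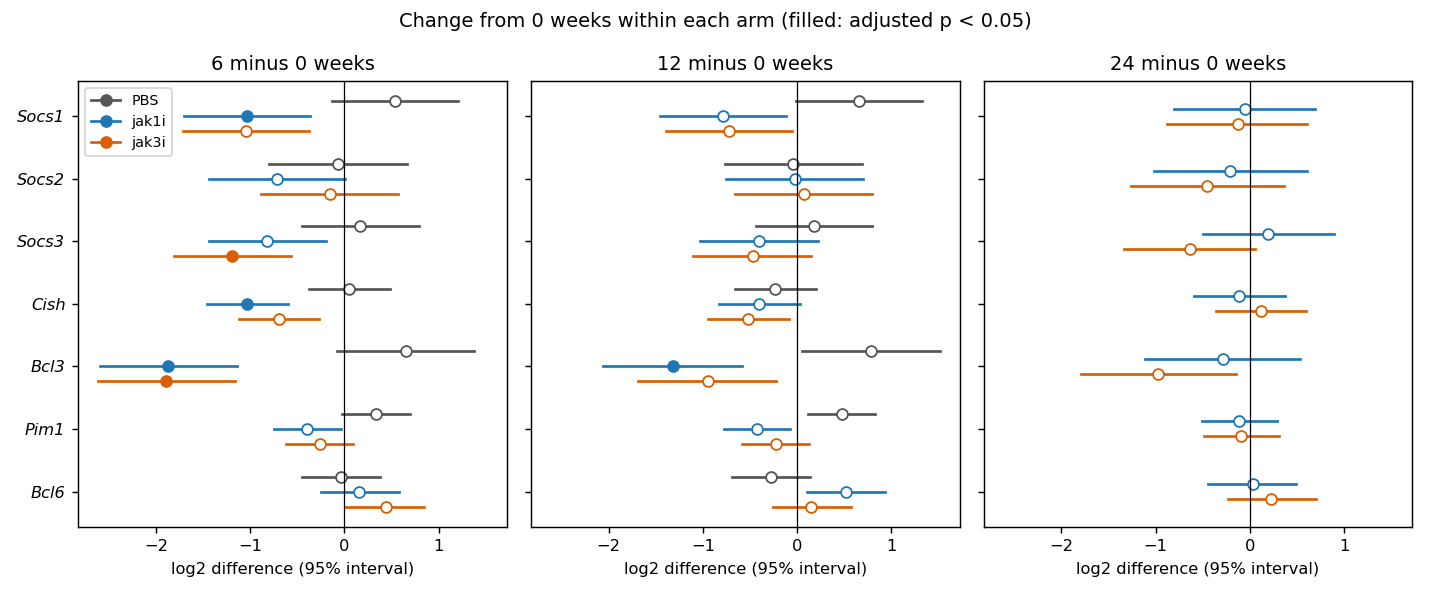
Each panel shows, on the x axis, the log2 difference of a later week from 0 weeks within an arm, with its 95% interval, for the 7 genes on the y axis. Filled points passed the test, and at 24 weeks, with 2 arrays per inhibitor arm and no PBS group, none did.

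No member passed the test between jak3i and jak1i at 6, 12 or 24 weeks, and 0% of all 18193 genes were called at each of these weeks. At 6 weeks the differences, jak3i minus jak1i, ran from -0.08 for Socs1 to 0.67 for Socs2. There 0 members had an unadjusted p below 0.05, against 470 of the 18193 genes. The 95% interval for Bcl3 was -0.37 to 1.09 and that for Cish -0.40 to 0.46, so differences of about those sizes remain possible. At 12 weeks 1087 of the 18193 genes had an unadjusted p below 0.05, among them 3 members. These were Bcl6 at -0.57 (SE 0.20, 95% interval -0.99 to -0.16, adjusted p = 0.746), Bcl3 at 0.74 (SE 0.35, interval 0.01 to 1.48, adjusted p = 0.821) and Cish at -0.43 (SE 0.21, adjusted p = 0.833, limma). The genes that passed against PBS in 1 arm alone at 12 weeks, Bcl3 and Bcl6, are therefore not shown to differ between the inhibitors.

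At 24 weeks each inhibitor group consisted of 2 arrays that lay far apart for several members. Bcl3 read 8.47 and 6.88 with jak1i and 7.82 and 6.91 with jak3i. Socs1 read 7.11 and 5.58 with jak1i and 6.27 and 6.14 with jak3i, and Socs3 read 11.37 and 10.09 with jak1i and 10.43 and 10.21 with jak3i. Cish read 10.12 and 9.54, and 9.65 and 9.86, all at or above 9.54, while every array of either inhibitor at 6 weeks lay at or below 9.26. Pim1 read 9.88 and 9.75, then 10.09 and 9.29. Socs2 read 9.84 and 8.92, then 8.92 and 9.57, and Bcl6 read 10.33 and 10.91, then 10.50 and 10.73. Replicate 1 of jak1i was thus the higher one for 6 of the 7 members and the lower one for Bcl6. No member was called from 12 to 24 weeks, where 0% of genes were called with jak1i and 0.033% with jak3i. None was called against 0 weeks either, where 1.19% and 0.11% of genes were called. The largest such differences were 1.03 for Bcl3 with jak1i from 12 to 24 weeks (SE 0.40, adjusted p = 1) and -0.97 for Bcl3 with jak3i from 0 to 24 weeks (SE 0.40, adjusted p = 0.223). On both inhibitors, replicate 1 also had the higher marker sums at this week. The interferon-gamma response genes summed to 15.09 and 13.25 with jak1i and 15.31 and 13.67 with jak3i. The cytotoxic lymphocyte markers summed to 11.17 and 9.95, and 11.99 and 10.34. The neutrophil markers summed to 13.16 and 10.02, and 11.40 and 10.27, and the hair shaft markers to 13.30 and 9.35, and 12.75 and 9.68. Their part in the members' values was not tested.

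Ordered by group mean, Bcl3 ran from 8.34 in jak3i at 0 weeks to 6.09 in jak1i at 6 weeks. The gap between jak3i at 24 weeks (7.37) and jak1i at 12 weeks (6.64) was the only one over the pooled SD of 0.46. Below that gap lay jak1i at 12 weeks and both inhibitors at 6 weeks. For Socs1 the gap over the pooled SD of 0.41 lay between jak3i at 24 weeks (6.20) and PBS at 0 weeks (5.78), so that the PBS start sat with the 4 inhibitor groups of 6 and 12 weeks. For Cish it lay between PBS at 12 weeks (9.53) and jak3i at 12 weeks (9.12), with both inhibitors at 6 weeks underneath, at 8.94 and 8.91. Socs2, Socs3 and Pim1 showed no gap between neighbouring groups over their pooled SDs of 0.45, 0.39 and 0.22.

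The other genes of the pathway were read by lists, and their 12-week calls depend on the PBS arrays of that week. Against the PBS arrays of 6 weeks, 0 of the 24 pathway genes called with jak1i at 12 weeks and 4 of the 19 called with jak3i were called (Stat5b, Il2rb, Ghr and Lta), and none of the 24 or 19 turned its sign. At 6 weeks, 0 of 9 called pathway genes with jak1i and 3 of 12 with jak3i kept their call without each array in turn. Of 6 other SOCS and PIM genes, 1 fell with each inhibitor at 6 weeks, Pim2, a relative of Pim1, with -0.57 (SE 0.13, adjusted p = 0.0288) and -0.52 (SE 0.13, adjusted p = 0.0341). At 12 weeks 2 rose and 2 fell with jak1i, and 1 rose and 2 fell with jak3i. Pim2 was lower at -0.40 and -0.43, and Socs5, known to limit growth factor receptor signalling, at -0.67 and -0.60. Socs6 was higher by 0.78 and 0.82, and Socs7 by 0.66 with jak1i. The median of this list stood at 0.05, -0.01, 0.28 and 0.07 in the 4 comparisons (jak1i and jak3i at 6 weeks, then at 12 weeks), against medians of all genes between -0.03 and 0.04.

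Of 10 other brakes on the pathway, 1 fell at 6 weeks with each inhibitor, Usp18, the interferon-induced protease that blocks the type I interferon receptor. Its differences were -2.28 with jak1i (SE 0.39, adjusted p = 0.0067) and -2.25 with jak3i (SE 0.39, adjusted p = 0.00498). At 12 weeks 2 fell and 1 rose with jak1i, and 2 fell with jak3i. Usp18 was lower at -2.11 and -1.60, the phosphatase Ptpn1 at -0.65 and -0.74, and Pias2, kept in only 6 of 16 alternatives, was higher by 0.53 with jak1i. Of 10 measured Janus kinases and STATs, 2 fell at 6 weeks with either inhibitor. Stat2, which carries type I interferon signals, was lower at -1.90 (SE 0.37, adjusted p = 0.0139) and -1.77 (SE 0.37, adjusted p = 0.0149), and Stat3 at -0.78 and -0.76. At 12 weeks 2 fell with jak1i, and 2 fell and 1 rose with jak3i. Stat2 was lower at -1.68 and -1.55 and Stat4 at -0.84 and -0.90, while Stat3 differed by -0.19 and -0.11 (adjusted p = 0.504 and 0.711). Stat5b was higher by 0.70 with jak3i.

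Of 11 measured gamma-chain cytokines and receptors, 2 fell at 6 weeks with each inhibitor, and 4 with jak1i and 2 with jak3i at 12 weeks. Il2rb, the receptor subunit shared by interleukin-2 and interleukin-15, fell in all 4 comparisons. At 6 weeks the differences were -1.38 (SE 0.29, adjusted p = 0.018) and -1.59 (SE 0.29, adjusted p = 0.00593), and at 12 weeks -1.15 and -1.81. The interleukin-4 receptor gene Il4ra was lower at -1.19 with jak3i at 6 weeks and -1.34 with jak1i at 12 weeks. Il7r, the interleukin-7 receptor, was lower at -1.06 and -0.99 with jak1i at 6 and 12 weeks, and Il21r at -0.98 and -0.73 at 12 weeks with jak1i and jak3i. Of 8 measured genes of the interleukin-6 family, 1 fell at 6 weeks, the cytokine Lif with jak3i, by 0.73 (SE 0.18, adjusted p = 0.0341). At 12 weeks 2 rose and 2 fell with jak1i and 3 rose with jak3i. The receptors Il6ra (1.12 and 0.90) and Lifr (0.82 and 0.90) were higher in both arms and Il6st, the shared subunit, in jak3i (1.07), while the cytokines Lif and Osm were lower at -0.68 and -0.62 with jak1i. The receptor calls were weakly held: Il6ra kept its call in 9 and 4 of 16 alternatives with jak1i and jak3i, Lifr in 7 and 9, and Il6st in 8.

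Of 4 measured genes of the growth hormone and prolactin axis, the receptor Ghr was higher by 1.12 with jak3i at 6 weeks (SE 0.28, adjusted p = 0.0407) and by 0.94 and 1.04 at 12 weeks. Igfbp3, an insulin-like growth factor binding protein, was higher by 2.0 and 1.67 at 12 weeks. The 12-week calls of Socs5, Socs6, Lif, Lifr, Il6st and Ghr are among those that turned their sign, without a call, when the skeletal muscle markers entered as a covariate. Of 14 other STAT3 and STAT5 targets, 0 and 1 fell at 6 weeks and 3 and 2 at 12 weeks with jak1i and jak3i, and their median lay between -0.24 and 0.02. Lta, a lymphocyte cytokine, was lower at -1.72 with jak3i at 6 weeks (SE 0.39, adjusted p = 0.0249) and at -1.72 and -1.61 at 12 weeks. The transcription factor Cebpb was lower at -0.36 and -0.49 at 12 weeks. Of 8 measured NF-kB genes, the family Bcl3 acts with, 3 fell at 6 weeks with each inhibitor, and 3 with jak1i and 2 with jak3i at 12 weeks. The inhibitor gene Nfkbie was lower at -1.54 (SE 0.30, adjusted p = 0.0134) and -1.81 (SE 0.30, adjusted p = 0.00397) at 6 weeks and at -1.23 and -0.88 at 12 weeks. Nfkb2 was lower at -0.81 and -0.89, then at -0.61 and -0.59. Relb fell by 0.86 in each arm at 6 weeks, Rel fell by 0.72 with jak1i at 12 weeks, and Relb differed by -0.17 at 12 weeks with jak1i (adjusted p = 0.485).

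Some markers of cytotoxic lymphocytes and T cells fell in each of the 4 comparisons with PBS. Of 12 cytotoxic lymphocyte markers, 8 and 9 fell at 6 weeks and 10 and 11 at 12 weeks with jak1i and jak3i, with medians of -2.29, -2.08, -1.94 and -2.85. Their summed level at 6 weeks was 11.89 to 12.33 in PBS, 8.87 to 9.42 with jak1i and 8.95 to 9.17 with jak3i. At 12 weeks it was 11.72 to 13.20, 9.28 to 10.11 and 8.67 to 9.50. The inhibitor ranges did not overlap with those of PBS. Of 11 measured T cell markers, 5 fell with each inhibitor at 6 weeks, and 6 and 7 at 12 weeks. Their sum at 6 weeks was 10.97 to 11.27 in PBS against 10.22 to 10.55 and 10.24 to 10.39 with the inhibitors, and at 12 weeks 11.06 to 11.47 against 10.39 to 10.64 and 10.17 to 10.40. Of 12 interferon-gamma response genes, 5 and 11 fell at 6 weeks and 12 and 10 at 12 weeks, and of 7 measured stressed keratinocyte markers, 2 and 3, then 5 and 2. Of 6 measured neutrophil markers, 0 were called at 6 weeks, with medians of -1.25 and -1.30, and 3 fell with jak1i at 12 weeks. Against the PBS arrays of 6 weeks, the 12-week calls with jak1i and jak3i were 4 and 10 cytotoxic markers, 2 and 5 T cell markers, 0 and 4 interferon-gamma response genes, 1 and 0 stressed keratinocyte markers and 0 and 0 neutrophil markers, all lower. The part of these cell types in the members' differences was not tested.

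Other tissue compartments shifted as well, chiefly at 12 weeks. All 10 skeletal muscle markers were called higher than PBS at 12 weeks with each inhibitor, with medians of 5.44 and 5.28, and 0 were called at 6 weeks. The hair shaft markers at 12 weeks summed to 13.50 to 15.25 in PBS, 9.58 to 11.39 with jak1i and 9.06 to 11.22 with jak3i, and 3 of 9 were called lower with jak3i. Of 7 measured fat cell markers, 5 were higher with jak3i at 6 weeks, and of 8 endothelial markers 7 were higher with jak3i at 12 weeks. Of 8 macrophage markers 3 fell, and of 5 measured B cell markers 2 fell, with jak1i at 12 weeks, and 2 B cell markers fell with jak3i as well. Against the PBS arrays of 6 weeks, 5 endothelial markers were still called with jak3i at 12 weeks, and 0 muscle, hair shaft, macrophage or B cell markers with either inhibitor. No epidermal keratinocyte marker of 9 and no fibroblast marker of 7 was called in the 4 comparisons.

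Across the 31 arrays Bcl3 followed the inflammatory lists most closely. Pearson's r with the mean of the stressed keratinocyte markers was 0.92, with neutrophil markers 0.87, with NF-kB genes 0.86 and with interferon-gamma response genes 0.85. After each array's group mean was subtracted, the same correlations were 0.78, 0.73, 0.60 and 0.75. With T cell markers r was 0.62, and 0.20 within groups. Cish correlated with cytotoxic markers at 0.72 (0.34 within groups) and ran against fat cell markers at -0.73 (-0.52 within groups). It ran against the growth hormone and prolactin axis at -0.68 (-0.60 within groups) and endothelial markers at -0.62 (-0.59 within groups). With hair shaft markers its r was 0.49 (0.57 within groups). Socs1 correlated most with the other brakes on the pathway, at 0.85 (0.74 within groups), and with the interferon-gamma response genes at 0.78 (0.58 within groups). Pim1 correlated with gamma-chain cytokines and receptors at 0.67 (0.51 within groups) and with cytotoxic markers at 0.65 (0.55 within groups). Bcl6 ran against hair shaft markers at -0.60 (-0.70 within groups) and macrophage markers at -0.66 (-0.46 within groups). For Socs2 the correlations lay between -0.48, with B cell markers (-0.53 within groups), and 0.36, with the interleukin-6 family. These values describe arrays that share treatment groups and tissue makeup, and are given without a test.

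**Figure D4:**
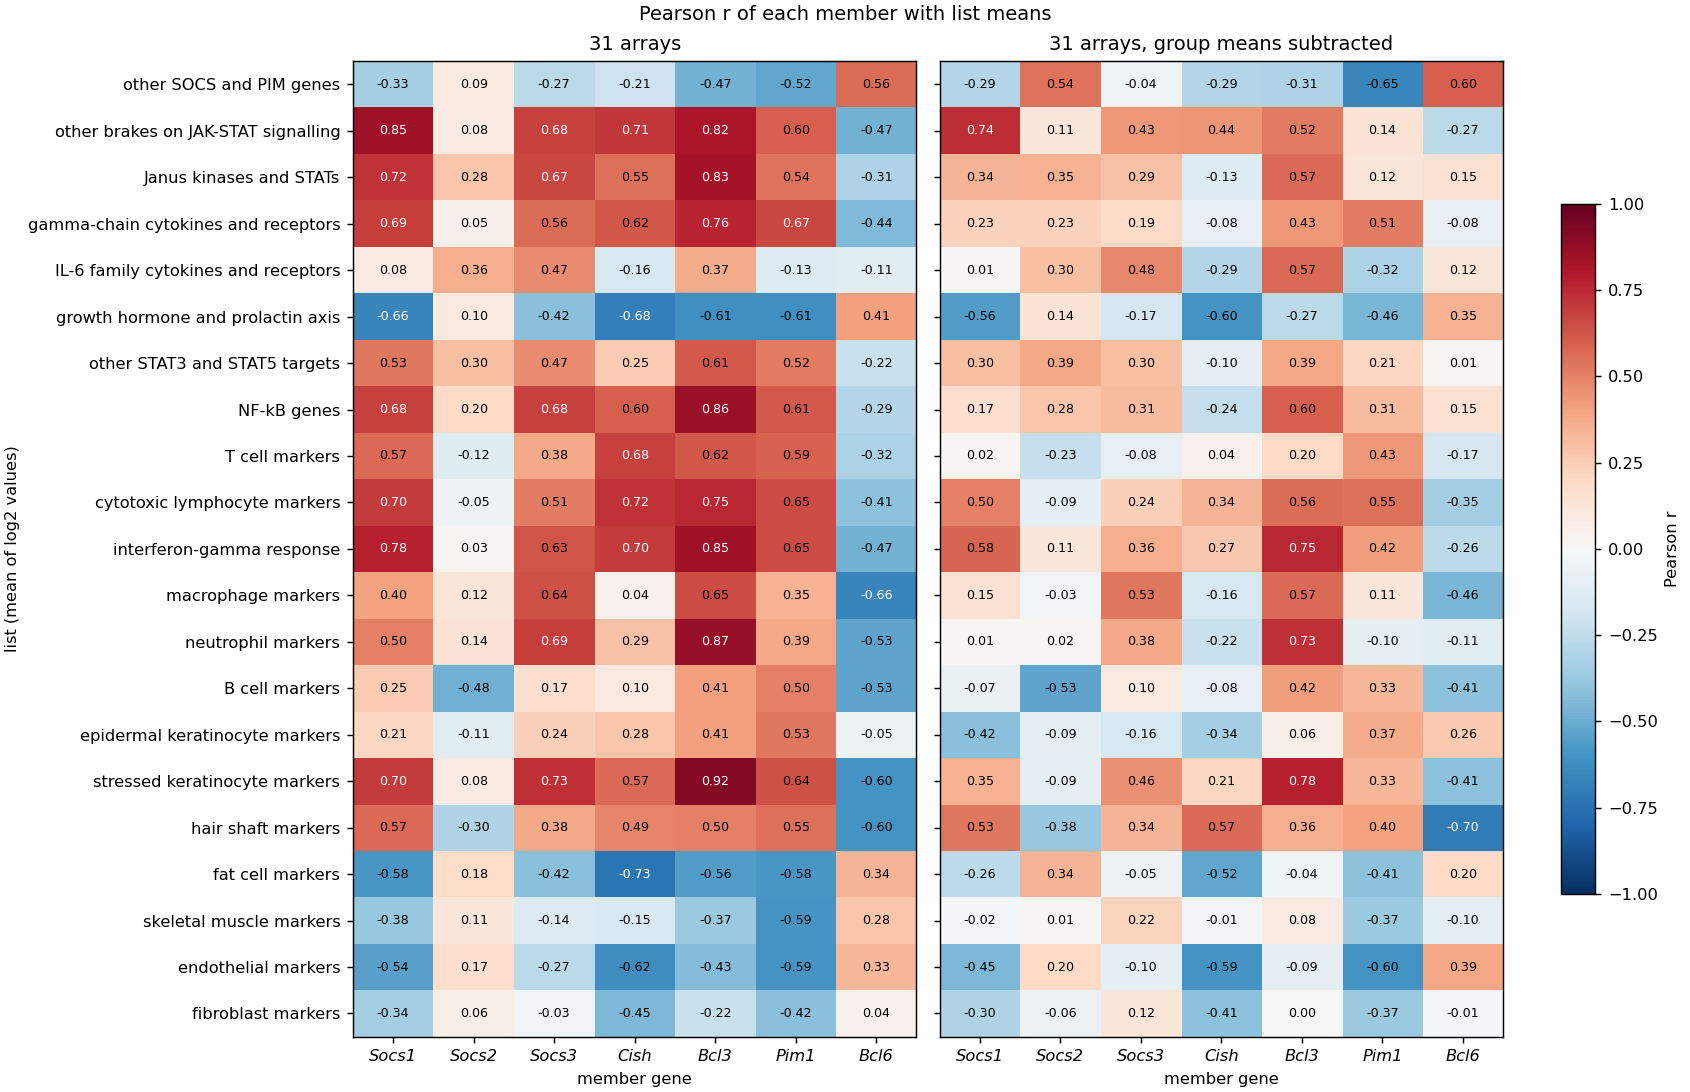
Colours and printed numbers give Pearson's r between each member (x axis) and the mean log2 value of each list (y axis) over the 31 arrays, on the left as measured and on the right after subtracting group means. Bcl3 has the strongest values, up to 0.92 with stressed keratinocyte markers, and Socs2 lies between -0.48 and 0.36 in the left panel.

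Among themselves, Bcl3 correlated with Socs3 at r = 0.80 (0.54 within groups) and with Socs1 at 0.79 (0.52), and Socs1 with Cish and Socs3 at 0.75 each (0.63 and 0.61). Cish and Bcl3, the members called in both arms at 6 weeks, correlated at 0.56 over all arrays but at 0.02 within groups. Bcl6 ran against Socs3 at -0.60, Socs1 at -0.58, Bcl3 at -0.57 and Pim1 at -0.53. Socs2 correlated with the others at -0.17 to 0.36. Genes with an SD of at least 0.2 were also compared, without the members and genes with provisional symbols such as Gm, LOC or Rik, which left 8719. Among these, the genes most like each member by Pearson's r over 31 arrays were as follows. For Socs1 they were Tnfrsf4, Pdcd1lg2 and Sting1, each at 0.88. For Bcl3 they were Ifitm3 (0.94), Stfa3 (0.93) and Icam1 (0.92), and Stfa3 is also in the stressed keratinocyte list. For Socs3 they were Il13ra2 (0.83), Ccl7 (0.83) and Timp1 (0.82). For Cish they were Denn2b (0.82, 0.48 within groups), Rnf19b (0.81, 0.71 within groups) and Tnfrsf18 (0.81, 0.47 within groups). For Pim1 they were Mif (0.90), Rab8a (0.87) and Trex2 (0.85), and for Bcl6 Arrdc3 (0.84), Ubr2 (0.84) and Pcmtd1 (0.83). Socs2 had the weakest matches, Nampt (0.73), Eif4ebp1 (0.70) and Rdh16 (0.69). Within groups, all these matches except Denn2b and Tnfrsf18 lay between 0.63, for Rdh16, and 0.88, for Mif.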

How the data were processed

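Gene expression in 31 skin samples was measured on Affymetrix arrays, with RNA from the miRNeasy kit and labelling by in vitro transcription from the 3' end, per the labels' protocols. The deposited values are log2 RMA values made by the authors, per the submitters' processing notes, which name no version of RMA. RMA corrects background, equalises the arrays' distributions and summarises probes, so differences are relative to the other genes of an array. Weeks were read from the W in the sample titles. No detection call or scan date entered the analysis, so scan batches were not tested, and the number of arrays limits the precision.

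Of 45101 probe sets, 34958 name 1 gene in the platform annotation, 932 several and 9211 none, and the probe set of highest mean stood for each of 18193 genes. With limma 3.58.1 in R 4.3.3, 1 linear model of 11 group means over 31 arrays (20 residual degrees of freedom) gave 24 contrasts by empirical Bayes, with Benjamini-Hochberg adjustment per contrast. All arrays entered the fit so that small groups share 1 estimate of the spread. The code was tested on simulated data. The p-values measure the spread between these samples.

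The members and all gene lists were chosen with earlier results of these data known. Named genes are the members, up to 4 called genes with the largest difference per pathway list, and the 3 genes most correlated with each member among those compared. List genes that no probe set names alone are not in the lists' counts. Alternatives were array centring, a filter on dim genes, the mean of all probe sets, trended and robust variance, the compared arrays alone, a replicate block, hair or muscle markers as a covariate, and leaving out each array. Arrays of 1 arm with the same replicate number did not deviate together: 12 of 39 pairs correlated above 0.1, with a median of -0.05, so the numbers were not taken as pairs.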

Additional observations from a re-analysis of the deposited data

Results flagged for a closer look

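In 4 cases the change in an inhibitor arm differed from the change in the PBS arm by a test of that difference in the model of all arrays (limma). For Bcl3, the change from 0 to 6 weeks with jak1i minus that with PBS was -2.52 (adjusted p = 0.0458). The change from 0 to 12 weeks was -2.11 (adjusted p = 0.0181) with jak1i and -1.74 (adjusted p = 0.049) with jak3i, each minus that with PBS. For Pim1, the change from 0 to 12 weeks with jak1i minus that with PBS was -0.91 (adjusted p = 0.0294). In each case the inhibitor mean was lower and the PBS mean higher at the later week than at 0 weeks. The PBS arrays at 0 weeks serve in all 4, and their means lay below those of the inhibitor arms at that week. For Bcl3 the means were 7.38 in PBS, 7.96 with jak1i and 8.34 with jak3i, and for Pim1 9.59 in PBS and 9.92 with jak1i. The PBS arrays of 12 weeks, which stand apart in skeletal muscle markers, serve in the changes to 12 weeks. With these markers as a covariate the Pim1 difference was -0.32 (adjusted p = 0.949, limma). The Bcl3 changes to 12 weeks were then -2.36 with jak1i and -1.96 with jak3i, without a call. The Bcl3 calls for jak1i at 6 weeks and jak3i at 12 weeks were lost without 10 of the 12 arrays in turn, and the Pim1 call without 7.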

How the results depend on the processing

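Of 18 called differences of members, 2 kept their call in all alternatives run, Cish and Bcl3 from 0 to 6 weeks with jak1i. Over the 298 alternatives of the called differences, 195 kept direction and call, 102 lost the call and 1 turned: Pim1 with jak3i against PBS at 12 weeks, at 0.03 with the muscle markers as a covariate. Of the uncalled differences, 28 alternatives gave a call and 31 another sign. The threshold is adjusted over 18193 genes, and how many genes pass moves with each setting. The causes were not tested, except that fits of the compared arrays alone and fits without an array hold fewer samples.

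The count of called members moved as follows. With each array centred it was 1 instead of 2 with jak1i against PBS at 6 weeks, 2 instead of 1 with jak3i at 12 weeks, 2 instead of 0 for jak3i from 0 to 12 weeks, and 0 instead of 1 for the jak1i change to 6 weeks minus that in PBS. With the compared arrays alone it was 1 and 0 against PBS at 6 weeks (jak1i, jak3i), 3 for jak1i from 0 to 12 weeks and 0 for jak3i from 0 to 6 weeks. It was 2 for the jak3i changes minus those in PBS to 6 and to 12 weeks. With the mean of all probe sets it was 2 for jak1i from 0 to 12 weeks and 0 for the jak3i change to 12 weeks. With hair shaft markers as a covariate it was 1 with jak3i at 6 weeks, 0 with either inhibitor at 12 weeks, 0 for jak1i from 0 to 12 weeks, 1 for jak3i from 0 to 6 weeks and 0 for either change to 12 weeks. With muscle markers it was 0 with either inhibitor at 12 weeks and 0 for the jak1i change to 6 and either change to 12 weeks. With muscle markers Bcl3 and Bcl6 stood at -1.76 and 0.86 with jak1i against PBS at 12 weeks. The Bcl3 changes to 12 weeks were -2.36 and -1.96 with jak1i and jak3i, and 0 genes were called in all in those fits. The PBS arrays of 12 weeks stand apart on these markers, so those fits cannot separate the markers from that group. Their sizes are no sign of stability or its lack. Against the PBS arrays of 6 weeks the count of members was 0 with either inhibitor at 12 weeks. Smaller moves came as well. The count ran from 2 to 4 for jak1i from 0 to 6 weeks and reached 3 for jak3i from 0 to 6 weeks. For the jak1i change to 12 weeks minus that in PBS it reached 3, with Socs1 called.

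With the replicate number as a fixed block the count with jak3i against PBS at 12 weeks was 0, where Pim1 stood at -0.51 (adjusted p = 0.0561). With arm and number as a random block it was 0 for the jak1i change to 6 weeks and for the jak3i change to 12 weeks. The block changed no other count of members past 1.5 times, and the numbers did not pair the arrays. The fixed block also called Socs3 for jak1i from 0 to 6 weeks (adjusted p = 0.0384) and Socs1 for the jak1i change to 12 weeks (adjusted p = 0.0498).

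Leaving out arrays gave 0 to 2 called members with jak1i and 0 to 3 with jak3i against PBS at 6 weeks, and 0 to 4 and 0 to 2 at 12 weeks. From 0 weeks, leaving out arrays gave 2 to 3 and 0 to 1 with jak1i at 6 and 12 weeks, and 1 to 4 and 0 to 1 with jak3i. Genes called in all were 506 to 2996 and 1168 to 2196 with jak1i, and 73 to 2463 and 1 to 1886 with jak3i. For the changes minus those in PBS it gave 0 to 3 members with jak1i at 6 and at 12 weeks and 0 to 2 with jak3i at 12 weeks. There 0 to 424, 276 to 1916 and 0 to 1182 genes were called in all.

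Signs of uncalled values turned as follows. With hair shaft markers, Bcl6 was -0.06 and -0.02 (jak1i, jak3i) against PBS at 6 weeks and -0.28 with jak3i at 12 weeks, Socs2 was -0.01 with jak1i and Socs3 0.22 with jak3i at 12 weeks. From 0 weeks, Bcl6 was -0.01 with jak1i at 6 and -0.27 with jak3i at 12 weeks, and Socs2 -0.35 with jak3i at 12 weeks. With centring, Cish was -0.01 with jak1i and Bcl6 -0.02 with jak3i against PBS at 12 weeks, and Socs2 was -0.10 and Bcl6 -0.01 with jak3i from 0 to 12 weeks. Against the PBS arrays of 6 weeks, Cish was -0.26 with jak1i and Bcl6 -0.12 with jak3i. With the mean of all probe sets, Socs3 was 0.04 with jak3i against PBS at 12 weeks and Socs2 0.07 with jak3i from 0 to 6 weeks. Without single arrays, Bcl6 ran from -0.05 to 0.23 with jak1i at 6 weeks, and at 12 weeks Cish from -0.08 to 0.18 with jak1i, Socs3 from -0.29 to 0.27 and Bcl6 from -0.14 to 0.30 with jak3i. From 0 weeks, Socs2 ran from -0.35 to 0.20 (jak1i, 12 weeks), -0.42 to 0.16 (jak3i, 6 weeks) and -0.18 to 0.23 (jak3i, 12 weeks).

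Among called pathway genes, the muscle covariate turned Socs5 (0.14 and 0.21), Socs6 (-0.08 and -0.04) and Ghr (-0.22 and -0.10) at 12 weeks with jak1i and jak3i, Lif (0.08) and Lifr (-0.07) with jak1i and Il6st (-0.36) with jak3i. Calls kept in all alternatives were 0 of 9 and 1 of 12 at 6 weeks (Usp18 with jak3i) and 0 of 24 and 0 of 19 at 12 weeks. Genes called overall also moved: with the compared arrays alone 20 and 39 at 6 weeks against 248 and 353, and at 12 weeks, against 2431 and 3148, 457 and 147 with hair shaft markers, 0 and 0 with muscle markers and 15 and 419 against the PBS arrays of 6 weeks.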
